A study of Mus musculus with 6 samples.

Results

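Major histocompatibility complex class I molecules show fragments of a cell's own proteins at the cell surface, where T lymphocytes and natural killer cells read them. The 10 genes described here carry out that pathway in the mouse, and all 10 have a row among the 31053 genes of every count table. Psmb8, Psmb9 and Psmb10 encode the catalytic subunits that replace the constitutive ones in the immunoproteasome, which cuts proteins into peptides. Tap1 and Tap2 form the transporter that moves peptides into the endoplasmic reticulum, and Tapbp encodes tapasin, which holds the empty class I molecule at the transporter. H2-K1 and H2-D1 encode classical class I heavy chains, B2m encodes the light chain beta-2 microglobulin, and Nlrc5 encodes a transactivator of class I genes. The genes were named beforehand with earlier results of these data known, so their values by genotype are given as a description.

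The cells were HB9::GFP mouse embryonic stem cells, in which a green fluorescent reporter is driven by the promoter of a motor neuron gene, differentiated towards motor neurons and taken as embryoid bodies at day 6. The 3 genotypes profiled by droplet single-cell RNA sequencing were wild type (WT), lncMN2_SP-/- (named DeltaSP) and lncMN2-/- (named KO), both edits made with CRISPR/Cas9 in the same reporter line. There were 2 libraries per genotype, each from a separate clone, so that the edit, the clone and the library preparation cannot be told apart. The study asked what loss of the lncMN2 locus does to this differentiation. Deposited tables held 2161 to 9345 barcodes and 24191242 to 49061693 UMIs (unique molecular identifiers, which stand for single captured RNA molecules), and 17 to 43 barcodes per library were also found in another library. A cell was kept where it had 1000 genes or more and a mitochondrial share of UMIs of 10% or less, which left 1612 to 4499 per library. WT 1 stood apart in depth: its kept cells had a median of 4157 UMIs, and medians elsewhere ran from 11898.5 to 15112. The transcript 5330434G04Rik (chrX:105348282-105391776, mm10, minus strand), taken here as lncMN2, had 661 and 907 UMIs in the WT libraries, 841 and 1066 in DeltaSP and 4 and 6 in KO, so the KO libraries match their label. Per 1000000 UMIs it had 32.5 and 33.5 in WT and 23.4 and 22.2 in DeltaSP, a log2 fold change of -0.66 ± 0.14 that did not pass the test used below (edgeR adjusted p = 0.151).

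Class I genes are expressed by most nucleated cells, and interferons raise them. Interferons act in part through IRF transcription factors, and NF-kappa B and the NLRC5 complex act on further elements of the class I promoters. Neurons and early embryonic cells are known for low class I expression.

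Of the 10 genes, 7 lie on chromosome 17, in or beside the major histocompatibility complex, and Psmb9, Tap1, Psmb8 and Tap2 follow each other there between 34181987 and 34216321 (mm10). B2m lies on chromosome 2, and Psmb10 and Nlrc5 on chromosome 8. RefSeq promoter windows (GRCm38.p6, 250 bases before to 50 after the start) were at hand for 8 of the 10 genes; Tap2 and Nlrc5 had none. The windows of both heavy chains hold a kappa B motif (GGGNNTTCC) followed by the core of an interferon response element (AANNGAAA, here on the opposite strand as TTTCNNTT), and that of B2m holds the interferon core alone. These 30-base sites are shown because, among the 8 genes with a window, only the 3 structural genes of the class I molecule held either motif. Only these exact letters within these windows were searched, so elements elsewhere or with other letters would be missed. Capitals mark the kappa B motif and the interferon core.
H2-K1, chr17:34000430-34000459, minus strand: tGGGGATTCCccatctccacagTTTCACTT
H2-D1, chr17:35262922-35262951, plus strand: tGGGGATTCCccatctcctcagTTTCACTT
B2m, chr2:122147539-122147568, plus strand: taagaacatgaAACTGAAAatgggaaagtc

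The sites of H2-K1 and H2-D1 are identical at 29 of 30 bases, while their whole windows, aligned at the interferon core without gaps, are identical at 73.3% of 240 bases. Searched on both strands, the interferon core is in 23.9% of all 32851 promoter windows and the kappa B motif in 5.82%. The interferon core together with a CRE-like motif (TGACG) and a CCAAT box is in 1.59% of all windows and in those of B2m, H2-D1 and H2-K1. Psmb8 has a match to the GAS motif (TTCNNNGAA, in 8.30% of windows), and the Psmb10 window holds none of the motifs searched. Tap1 and Psmb9 are read in opposite directions from starts 226 bases apart, and their windows share 275 bases, so that their CRE-like and CCAAT matches are the same bases read from both strands. The CRE-like motif alone is in 20.8% of all windows and the CCAAT box in 37.4%. A match is a description of letters and not of binding.

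**Figure D1:**
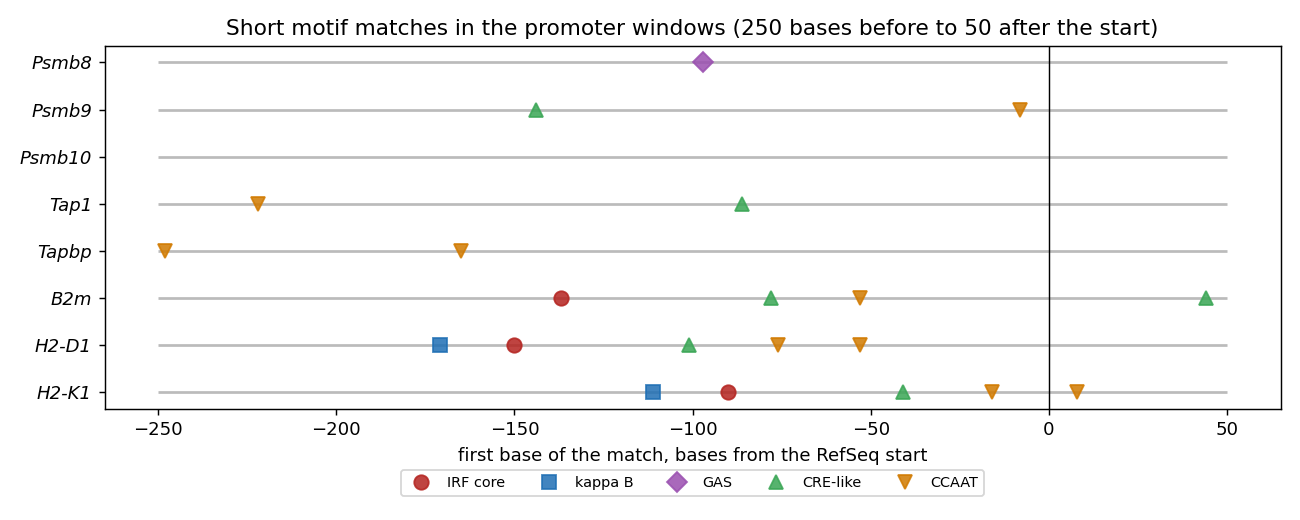
Positions of 5 short motifs in the promoter windows of the 8 genes with a RefSeq window; the x axis gives the first base of each match in bases from the RefSeq start (for H2-K1 the first of its 2 windows), and grey lines span the 300 bases. H2-K1 and H2-D1 share 1 order of motifs, set about 60 bases apart relative to their starts, B2m lacks the kappa B motif, and Psmb10 has no match.

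Taking all kept cells together, most of the pathway lay higher in both edited genotypes than in WT. Levels are given as counts per 1000000 (CPM), the UMIs of a gene in 1000000 UMIs of the library, which are not scaled to gene length, so they serve to compare libraries and not genes. In such sums, fewer cells that express a gene and less of its RNA per cell cannot be told apart. Fold changes are log2 values ± SE from edgeR's quasi-likelihood fit of the 6 libraries. edgeR reports no SE here, so it was taken as the size of the log2 fold change divided by the square root of the test's F value. Nlrc5 was too low for this fit, though some fits without 1 library included it, so that their medians cover 10 genes. The main fit covered 14900 genes, 9 of them members. In 8 of these 9 genes both DeltaSP libraries and both KO libraries lay above both WT libraries, counted on CPM divided by edgeR's TMM factors. Of all genes, 24.9% did so in DeltaSP and 30.1% in KO. Without these factors it was also 8 of 9 in both, but the share of all genes was not counted that way. The median log2 fold change of the 9 was 0.96 in DeltaSP and 0.91 in KO, beside -0.01 and 0.00 over all genes. At an adjusted p under 0.05, 5 of the 9 passed as higher in KO (Psmb8, Psmb9, Tap1, Tap2 and Tapbp; 2.81% of all genes passed in this direction) and 2 in DeltaSP (Psmb8 and B2m; 0.289% of all genes). These counts come from the contrast with which the genes were chosen, and rest on 2 clones per genotype: without WT 1 none of the 9 passed in either comparison. The count for KO also fell to 1 without KO 1, to 0 without KO 2 and to 2 without either DeltaSP library, and that for DeltaSP to 0 without either DeltaSP library and to 1 without either KO library, while the median stayed between 0.59 and 1.16 for KO and between 0.97 and 0.99 for DeltaSP in the fits that left out 1 library.

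Among the immunoproteasome subunits, Psmb8 (the beta 5i subunit, chr17:34197721-34201454, plus strand) differed most by genotype. It had 0.84 and 0.85 CPM in the WT libraries, 7.76 and 10.6 in DeltaSP and 7.51 and 8.07 in KO. All 4 edited libraries lay well above both WT libraries. The log2 fold change was 3.33 ± 0.29 in DeltaSP, or 10.0-fold, and 2.95 ± 0.29 in KO, or 7.73-fold. The WT values rest on 17 and 23 UMIs, against 226 to 507 in the edited libraries. In WT 1, 9 of these 17 UMIs came from 7 cells with at least 3 UMIs of a leukocyte gene list that made up at least 1 in 1000 of the cell's UMIs, and no other library had such a cell. Without these 7 cells, chosen after the data were seen, WT 1 had 0.39 CPM and the log2 fold changes were 3.73 ± 0.36 in DeltaSP and 3.35 ± 0.36 in KO. After each cell was thinned to 3000 UMIs, 0.084% and 0.265% of WT cells held a UMI of Psmb8, against 1.54% to 2.35% of cells in the edited libraries (unthinned, 0.244% and 0.682% against 3.80% to 6.44%). No cell type here lacks class I genes by definition, so no share from free RNA can be set beside these.

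Psmb9 (beta 1i, chr17:34181987-34187764, minus strand) had 2.02 and 2.0 CPM in WT, 4.34 and 4.19 in DeltaSP and 4.35 and 5.91 in KO. All 4 edited libraries lay above both WT libraries, with log2 fold changes of 0.96 ± 0.26 and 1.10 ± 0.26. Psmb10 (beta 2i, chr8:105935735-105938444, minus strand) was the exception in the pathway. It had 32.7 and 24.5 CPM in WT, 32.1 and 37.3 in DeltaSP and 29.2 and 28.0 in KO. The genotypes overlapped, and the log2 fold changes of 0.15 ± 0.21 in DeltaSP and -0.27 ± 0.21 in KO were near their errors. Across the 6 libraries the log2 level of Psmb10 correlated with those of the other 8 genes at Pearson's r between -0.34 and 0.37, whereas Psmb8, Psmb9, Tap1 and Tapbp correlated with each other at 0.93 to 0.98; the points share clones and library depth, and these values are a description.

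The transport and loading genes were all higher in the edited libraries. Tap1 (chr17:34187553-34197225, plus strand) had 5.12 and 6.10 CPM in WT, 12.9 and 10.5 in DeltaSP and 10.6 and 14.7 in KO. Tap2 (chr17:34203527-34216321, plus strand) had 0.89 and 1.59 in WT, 2.98 and 4.15 in DeltaSP and 4.52 and 6.17 in KO. Tapbp (chr17:33915899-33929292, plus strand) had 5.56 and 8.31 in WT, 16.7 and 14.3 in DeltaSP and 14.0 and 18.3 in KO. For all 3 genes the lowest edited library lay above the highest WT library. In DeltaSP the log2 fold changes were 0.93 ± 0.20 for Tap1, 1.41 ± 0.36 for Tap2 and 1.03 ± 0.21 for Tapbp. In KO they were 0.91 ± 0.20, 1.84 ± 0.36 and 0.97 ± 0.21.

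The 3 genes of the class I molecule itself were also higher in the edited libraries, with more spread between the KO clones. B2m (chr2:122147686-122153083, plus strand) had 25.1 and 23.9 CPM in WT, 54.5 and 49.7 in DeltaSP and 38.8 and 41.5 in KO. H2-D1 (chr17:35262730-35267499, plus strand) had 20.5 and 22.6 in WT, 57.2 and 44.4 in DeltaSP and 30.4 and 59.6 in KO. H2-K1 (chr17:33996017-34000347, minus strand) had 66.1 and 95.2 in WT, 157.6 and 139.6 in DeltaSP and 128.6 and 229.6 in KO. KO 2 held more H2-D1 and H2-K1 than KO 1, while B2m was close in both. The log2 fold changes in DeltaSP were 0.96 ± 0.13 for B2m, 1.11 ± 0.28 for H2-D1 and 0.76 ± 0.26 for H2-K1. In KO they were 0.45 ± 0.13, 0.80 ± 0.27 and 0.90 ± 0.26. Heavy chain genes are close relatives: of the 50-base windows in the last 500 bases of the transcript, where a 3' kit reads, 9.53% of those of H2-D1 and 0.444% of those of H2-K1 also occur in another gene, so their counts are less certain than those of the other 8 genes, which had none.

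Nlrc5 (chr8:94434356-94527272, plus strand) was near the limit of detection, with 6 and 4 UMIs in WT, 12 and 7 in DeltaSP and 2 and 2 in KO. A difference by genotype was not detectable at this depth.

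**Figure D2:**
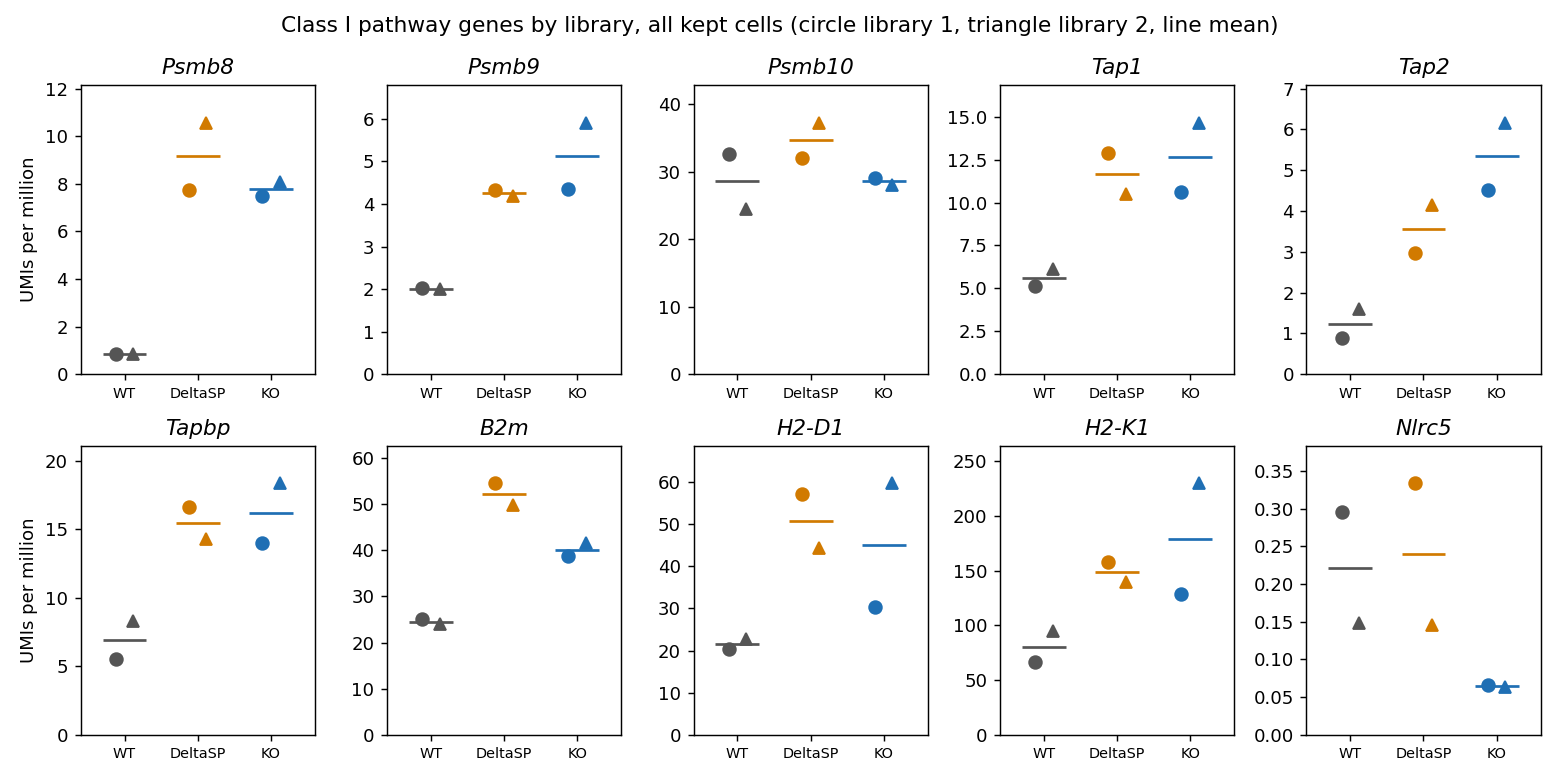
Levels of the 10 genes in each library over all kept cells, in CPM (y axes start at 0 and differ between genes); circles are library 1, triangles library 2 and lines the mean of the 2. In 8 genes all edited libraries lie above both WT libraries, the exceptions being Psmb10 and Nlrc5.

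Over all kept cells KO and DeltaSP were close to each other in the median of the members. In the neuron-gene cells described below, KO lay lower. The median log2 fold change of KO against DeltaSP was -0.07 over the 9 genes, and the single values ran from -0.51 ± 0.13 for B2m to 0.43 ± 0.33 for Tap2. None of the 9 passed edgeR's test (1 at an unadjusted p under 0.05, and none with DESeq2), beside 1 gene in the whole table, 5330434G04Rik, which was lower in KO (0.00671% of genes). The comparisons of DeltaSP and KO with WT share the WT libraries, and so are not independent of each other.

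The rest of the pathway was read from lists, also drawn up with earlier results known. Of the constitutive proteasome, whose catalytic subunits the immunoproteasome replaces, 0 of 14 core particle genes passed edgeR's test in either comparison with WT (0 at an unadjusted p under 0.05), and their median log2 fold change was -0.14 in KO and -0.04 in DeltaSP. Of these, Psma3 had -0.33 ± 0.19 in KO and -0.29 ± 0.19 in DeltaSP. The 4 proteasome activator genes had values above 0 in both (medians 0.43 and 0.59) and none passed edgeR's test (2 in KO and 3 in DeltaSP at an unadjusted p under 0.05); the closest was Psme3, at 0.77 ± 0.19 with an edgeR adjusted p of 0.051 in KO. None of the 8 loading partners passed edgeR's test (2 and 4 at an unadjusted p under 0.05), Canx (calnexin, a chaperone of new heavy chains) being nearest at 0.67 ± 0.18 in KO and 0.55 ± 0.18 in DeltaSP.

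Of the nonclassical class I genes, 3 of 12 tested rose in KO, namely H2-Q4 by 1.37 ± 0.21, H2-T22 by 1.33 ± 0.24 and H2-M3 by 2.22 ± 0.49. In DeltaSP H2-Q4 had 1.31 ± 0.21 and H2-T22 had 1.33 ± 0.24, and none of the 12 passed edgeR's test (7 at an unadjusted p under 0.05). Of 23 regulators of class I genes, Irf1 (an interferon-induced transcription factor) and Socs1 (a feedback inhibitor of interferon signalling) passed in both comparisons. Irf1 rose by 1.90 ± 0.26 in KO and 1.84 ± 0.26 in DeltaSP, and Socs1 by 1.08 ± 0.23 and 1.67 ± 0.22. Of 11 class II genes 5 were tested, and none passed edgeR's test (1 in KO and 0 in DeltaSP at an unadjusted p under 0.05). Of the interferon effector list (antiviral genes induced by interferons, none of them a member), 16 of 20 were tested and 9 rose in each comparison, among them Rtp4, at 4.71 ± 0.74 in KO and 6.43 ± 0.74 in DeltaSP, and Oasl2, at 3.83 ± 0.63 and 5.60 ± 0.63. Between the edited genotypes, 0 of these 16 passed edgeR's test (15 at an unadjusted p under 0.05), with all 16 values lower in KO than in DeltaSP. In each comparison with WT, far fewer genes of the whole table passed without WT 1 or without either library of the edited genotype compared. More passed without WT 2. The counts over these lists thus rest on single libraries too.

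Over the 6 libraries, the genes outside the pathway whose log2 levels were most like the mean standardized level of the members were Mdh1, Ubr7, Trim37, Wdr48, Tut1 and Ifi27, with Pearson's r of 0.989 to 0.992. They were picked from 10207 genes over 6 points, which share clones and depth.

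Within the embryoid bodies the pathway was unevenly spread over cells. Each cell was thinned to 3000 UMIs, leaving out 56 to 201 shallower cells per library and 936 in WT 1, and called a neuron-gene cell where it held at least 10 UMIs of 16 neuronal genes such as Tubb3, Stmn2 and Map2. This is a range and not a cell type, with 55 to 229 cells per library within 2 UMIs of the boundary; cells with at least 10 UMIs of mesenchymal genes, 1 to 8 per library, were set aside. Neuron-gene cells made up 46.5% and 42.2% of the thinned cells in WT, 36.1% and 26.2% in DeltaSP and 26.8% and 23.8% in KO. Members lay lower in them than in the other cells, with library as a block in the fit: 9 of 9 tested fell, by a median of 1.84 on the log2 scale, where 43.0% of all genes fell in this comparison.

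H2-K1 had 24.02 and 32.0 CPM in the neuron-gene cells of WT, 49.6 and 43.2 in DeltaSP and 38.2 and 77.5 in KO. In the other cells it had 97.1 and 154.5, 233.7 and 182.2, and 171.7 and 289.7. The neuron-gene cells were lower in all 6 libraries, and H2-K1 fell by 2.15 ± 0.05 on the log2 scale (edgeR adjusted p = 1.22e-11). B2m had a like pattern, with 8.12 to 21.3 CPM in neuron-gene cells against 37.8 to 77.1 in other cells and a fall by 1.84 ± 0.09 (edgeR adjusted p = 2.51e-09). The largest falls were those of Psmb8, by 2.99 ± 0.24, and Tap2, by 2.86 ± 0.24, both in 6 of 6 libraries. Their direction in WT rests on few molecules. The thinned cells held, before thinning, 4 UMIs of Psmb8 and 15 of Tap2 in WT 1, and 23 and 42 in WT 2. Psmb9 fell by 2.22 ± 0.20, Tap1 by 1.58 ± 0.10 and Tapbp by 1.42 ± 0.14, also in 6 of 6 libraries.

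H2-D1 and Psmb10 stood out by how little they differed. H2-D1 fell by 0.38 ± 0.09 (edgeR adjusted p = 0.00166) and was lower in 5 of 6 libraries, and Psmb10 fell by 0.36 ± 0.10 (edgeR adjusted p = 0.0074) and was lower in 4 of 6. Both heavy chains thus kept different proportions in the 2 ranges of cells. There were 0.831 and 0.668 UMIs of H2-D1 per UMI of H2-K1 in the neuron-gene cells of WT, 0.979 and 0.805 in DeltaSP and 0.528 and 0.670 in KO. In the other cells the ratio was 0.184 and 0.151, 0.271 and 0.265, and 0.205 and 0.217. The ratio was higher in neuron-gene cells in 6 of 6 libraries, by 1.79 ± 0.32 on the log2 scale (SD over 6 libraries). This ratio was chosen after the values were seen, so it is given without a test.

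The wider lists were read in the same contrast, in which 10871 of all 13067 genes passed in either direction and 43.0% passed as lower. The counts that fell among loading partners and constitutive proteasome genes lay near that share. Of 7 nonclassical class I genes tested 6 fell, H2-Q4 by 3.13 ± 0.11, and of 8 loading partners 3 fell and 3 rose, among them Erap1 (which trims peptides in the endoplasmic reticulum), with a fall by 2.27 ± 0.13, and Lnpep, which rose by 1.08 ± 0.07. Of the 14 constitutive proteasome genes 6 fell and 3 rose, by small amounts such as the 0.22 ± 0.03 by which Psmb2 fell. Of the regulators Irf1 fell by 2.27 ± 0.15 and Ifngr2, a subunit of the interferon gamma receptor, rose by 1.34 ± 0.06.

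Since neuron-gene cells were more frequent in WT and held less of most members, the genotypes were also compared within each range. In other cells, on CPM divided by the TMM factors, 8 of 9 members lay above WT in both DeltaSP libraries (23.1% of all genes) and 6 of 9 in both KO libraries (26.5%). On plain CPM the counts were 9 of 9 and 8 of 9, with B2m and H2-K1 added in KO and Psmb10 in DeltaSP. The share of all genes was not counted on that scale, so no background stands beside these counts. Psmb8 passed in KO, with 1 of 9 passing (0.223% of all genes; 3 of 9 without WT 2, and none without any other single library), and none passed in DeltaSP (7 at an unadjusted p under 0.05, 4 with DESeq2; 0.0503% of all genes). Psmb8 in other cells had 0.21 and 1.58 CPM in WT, 11.4 and 14.4 in DeltaSP and 10.4 and 11.03 in KO. B2m in other cells had 39.3 and 37.8 in WT, 77.1 and 62.9 in DeltaSP and 50.2 and 50.3 in KO, and its log2 fold change in KO was 0.09 ± 0.14, against 0.45 ± 0.13 over all cells. H2-D1 in other cells had log2 fold changes of 1.29 ± 0.26 in DeltaSP and 0.95 ± 0.25 in KO.

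In neuron-gene cells none of the 9 members passed edgeR's test in either comparison with WT (0.0693% of all genes passed as higher in DeltaSP and 0.994% in KO). At an unadjusted p under 0.05 there were 5 higher in DeltaSP, and 4 higher and 1 lower in KO. With DESeq2 1 passed in each, B2m as higher in DeltaSP and Psmb10 as lower in KO. Psmb8 had 1 and 0 UMIs in the neuron-gene cells of WT 1 and WT 2, 31 and 26 in DeltaSP and 16 and 4 in KO. Tap2 had 0 and 2 UMIs in WT, 12 and 17 in DeltaSP and 6 and 10 in KO. With so few WT molecules no fold is given for these genes. B2m had 8.12 and 8.50 CPM in WT, 21.3 and 20.4 in DeltaSP and 15.1 and 18.4 in KO, with log2 fold changes of 1.21 ± 0.17 and 0.74 ± 0.17. Psmb10 lay lower in KO, with 34.4 and 24.7 CPM in WT against 22.2 and 19.0 and a log2 fold change of -0.78 ± 0.22. Against DeltaSP, KO had a median log2 fold change of -0.46 in these cells, with 1 of 9 values above 0. None of the 9 passed edgeR's test (2 lower at an unadjusted p under 0.05), and 1 gene of the whole table passed as lower. Whether the effect of genotype differed between the ranges was not tested.

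The members also varied with the interferon effector genes from cell to cell. Cells with at least 5 UMIs of the effector list among 3000 are called effector-high here. They numbered 3 and 1 in the WT libraries, 117 and 117 in DeltaSP and 4 and 25 in KO, or 0.084%, 0.066%, 5.37%, 3.44%, 0.193% and 1.25% of thinned cells. The boundary is arbitrary: 33, 43 and 11 cells of DeltaSP 1, DeltaSP 2 and KO 2 held 5 or 6 such UMIs, and 64, 78 and 26 held 3 or 4. The 3 libraries with at least 20 effector-high cells were compared within each library. Their effector-high cells were mostly other cells (94, 106 and 24) and seldom neuron-gene cells (20, 11 and 1), so this contrast overlaps with the one before. Of the members other than Nlrc5, 9 of 9 rose in effector-high cells, by a median of 2.602 on the log2 scale, where 4.68% of all genes rose. Within other cells alone, a comparison added after the data were seen, 9 of 9 rose by a median of 2.46, where 2.35% of all genes rose.

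Psmb8 had 81.0, 100.7 and 157.4 CPM in the effector-high cells of DeltaSP 1, DeltaSP 2 and KO 2, against 3.52, 7.68 and 6.56 in the rest. It rose by 4.15 ± 0.17 (edgeR adjusted p = 2.0e-29), the most of these 9. H2-K1 had 652.0, 562.0 and 1121 against 129.2, 126.1 and 221.4 and rose by 2.22 ± 0.08 (edgeR adjusted p = 1.51e-31). Psmb10, for which the genotypes overlapped over all cells, had 101.4, 138.0 and 147.8 against 28.0, 34.2 and 26.8 and rose by 1.99 ± 0.12 (edgeR adjusted p = 1.16e-20), the smallest rise of the 9. H2-D1, which fell by only 0.38 in neuron-gene cells, rose by 2.76 ± 0.09. The rises of Psmb9, Tap1, Tap2, Tapbp and B2m lay between 2.47 ± 0.10 for B2m and 3.07 ± 0.28 for Tap2, in 3 of 3 libraries each. Nlrc5 had 5, 3 and 1 UMIs in the effector-high cells of DeltaSP 1, DeltaSP 2 and KO 2, too few for a fold. The other 9 members passed in each fit that left out 1 of the 3 libraries.

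**Figure D3:**
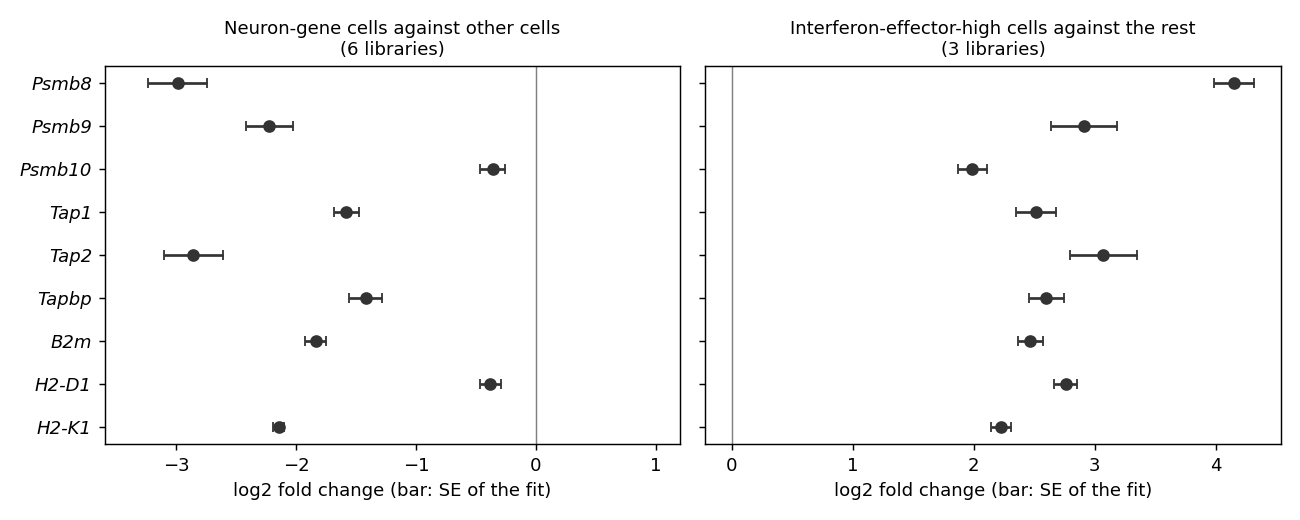
Log2 fold change of 9 members, with the SE of the fit, in neuron-gene cells against other cells (left, 6 libraries) and in effector-high cells against the rest (right, 3 libraries). Values on the left run from -2.99 to -0.36, with H2-D1 and Psmb10 nearest 0, and on the right from 1.99 to 4.15; Nlrc5, with too few UMIs, is not drawn.

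Of the 14 constitutive proteasome genes, 0 passed edgeR's test in effector-high cells (3 at an unadjusted p under 0.05), Psma2 being nearest at -0.23 ± 0.09. Of the 4 activators Psme2 rose by 1.11 ± 0.09 and Psme1 by 0.94 ± 0.10; both encode the PA28 regulator of the immunoproteasome. Of the loading partners Erap1 rose by 1.90 ± 0.28 and Tapbpl, a tapasin relative that edits peptides, by 1.38 ± 0.45. Among nonclassical genes 7 of 11 rose, with H2-Q7 at 3.27 ± 0.22, and among regulators 7 of 23, with Socs1 at 2.83 ± 0.21.

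Member UMIs were mostly higher in cells with more effector UMIs. Per 1000 cells of DeltaSP 1, H2-K1 had 384.0 UMIs in cells with 0 effector UMIs, 581.0 with 1 to 2, 765.6 with 3 to 4, 1414 with 5 to 9 and 3255 with 10 or more. Psmb8 in the same cells had 4.19, 42.8, 109.4, 128.6 and 383.0. B2m did not follow to the end in DeltaSP 2, where it had 706.7 UMIs per 1000 cells at 5 to 9 effector UMIs and 261.9 at 10 or more, over 75 and 42 cells. In KO 1, with 4 effector-high cells, the 80 cells with 1 to 2 effector UMIs had 275.0 UMIs of Psmb8 per 1000 cells against 9.60 in cells with 0.

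**Figure D4:**
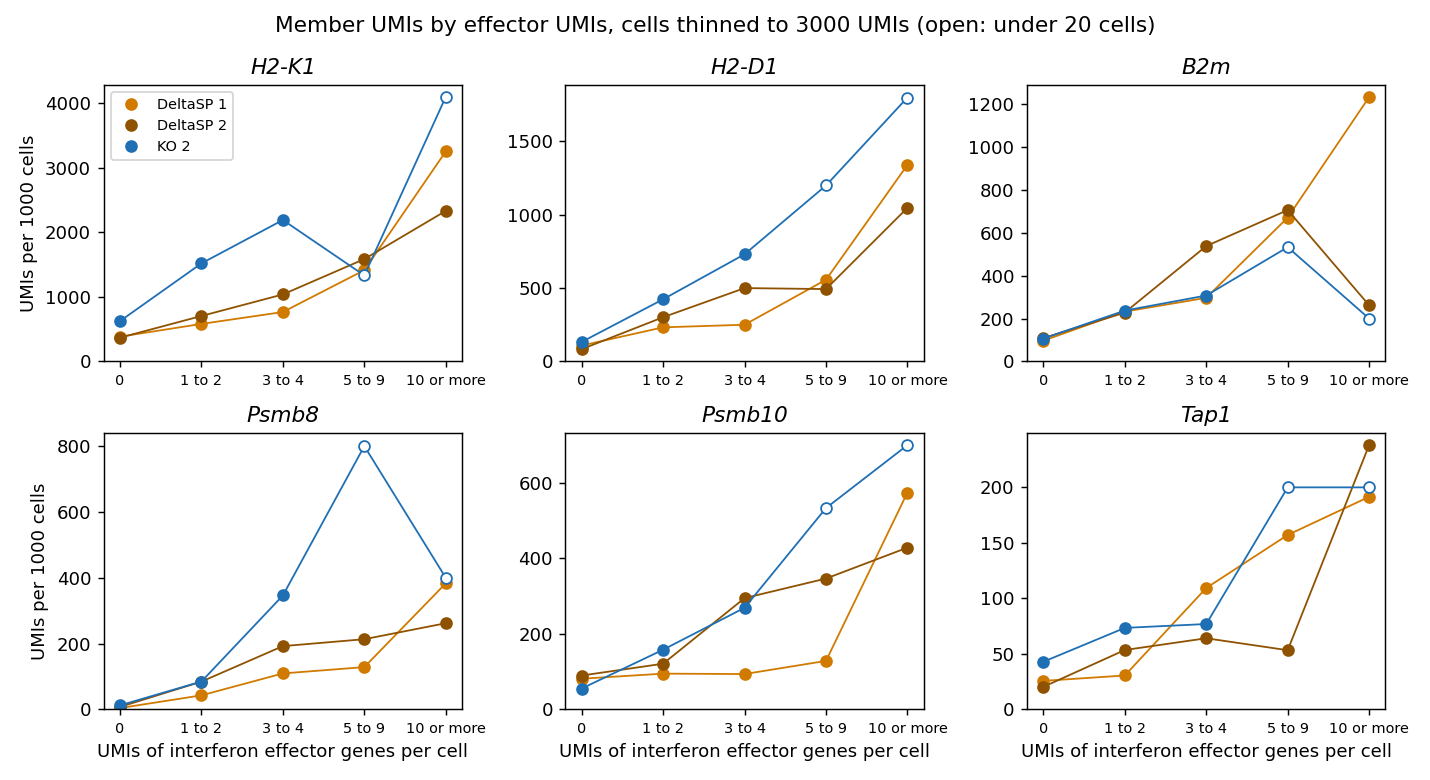
UMIs of 6 members per 1000 cells (y axes start at 0 and differ between genes) against the number of interferon effector UMIs in the cell, each cell thinned to 3000 UMIs, for the 3 libraries with at least 20 effector-high cells; open points are bins of under 20 cells. Most lines climb from the bin of 0 to that of 10 or more, and B2m drops in the last bin in DeltaSP 2 and KO 2.

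Part of the higher member level in DeltaSP sat in effector-high cells. They held 57.2% of the Psmb8 UMIs of DeltaSP 1 (exact 95% binomial interval 51.1% to 63.1%, counting error only), 29.96% of those of DeltaSP 2 (26.0% to 34.2%) and 19.4% of those of KO 2 (14.7% to 24.9%). For H2-K1 these shares were 22.7%, 12.7% and 4.85%. Without effector-high cells the median log2 fold change of the members was 0.69 in DeltaSP and 0.88 in KO. None of the 9 then passed edgeR's test in DeltaSP (6 at an unadjusted p under 0.05), where 1 gene of the whole table passed as higher (0.00674%) and 1 as lower. In KO 4 of the 9 passed, where 373 genes passed as higher (2.51%) and 662 as lower. Psmb8 kept values of 2.68 ± 0.45 and 2.82 ± 0.45.

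In cells with no effector UMI at all, an added comparison chosen after the data were seen, Psmb8 had 0.17 and 0.84 CPM in WT, 1.51 and 3.64 in DeltaSP and 4.0 and 3.15 in KO. H2-K1 had 61.1 and 94.7 in WT, 115.3 and 109.7 in DeltaSP and 115.1 and 189.5 in KO. For both genes every edited library still lay above both WT libraries. Psmb10 overlapped, with 24.3 to 32.7 CPM in WT, 26.6 to 29.9 in DeltaSP and 22.4 to 25.1 in KO. Tap1 and H2-D1 were separate on CPM but not in UMIs per thinned cell. On that scale Tap1 was lower in DeltaSP 2 than in WT 2, and H2-D1 lower in KO 1 than in WT 2. The share of all genes with every edited library above both WT libraries in these cells was not counted. The median log2 fold change was 0.48 in DeltaSP and 0.71 in KO, and none of the 9 passed edgeR's test in either (at an unadjusted p under 0.05, 3 higher in DeltaSP, and 6 higher and 1 lower in KO). Over all 14574 genes tested in these cells, 1 passed as higher (0.00686%) and 2 as lower in DeltaSP, and 220 as higher (1.51%) and 490 as lower in KO. A cell with no effector UMI among 3000 can still express effector genes below this depth.

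**Figure D5:**
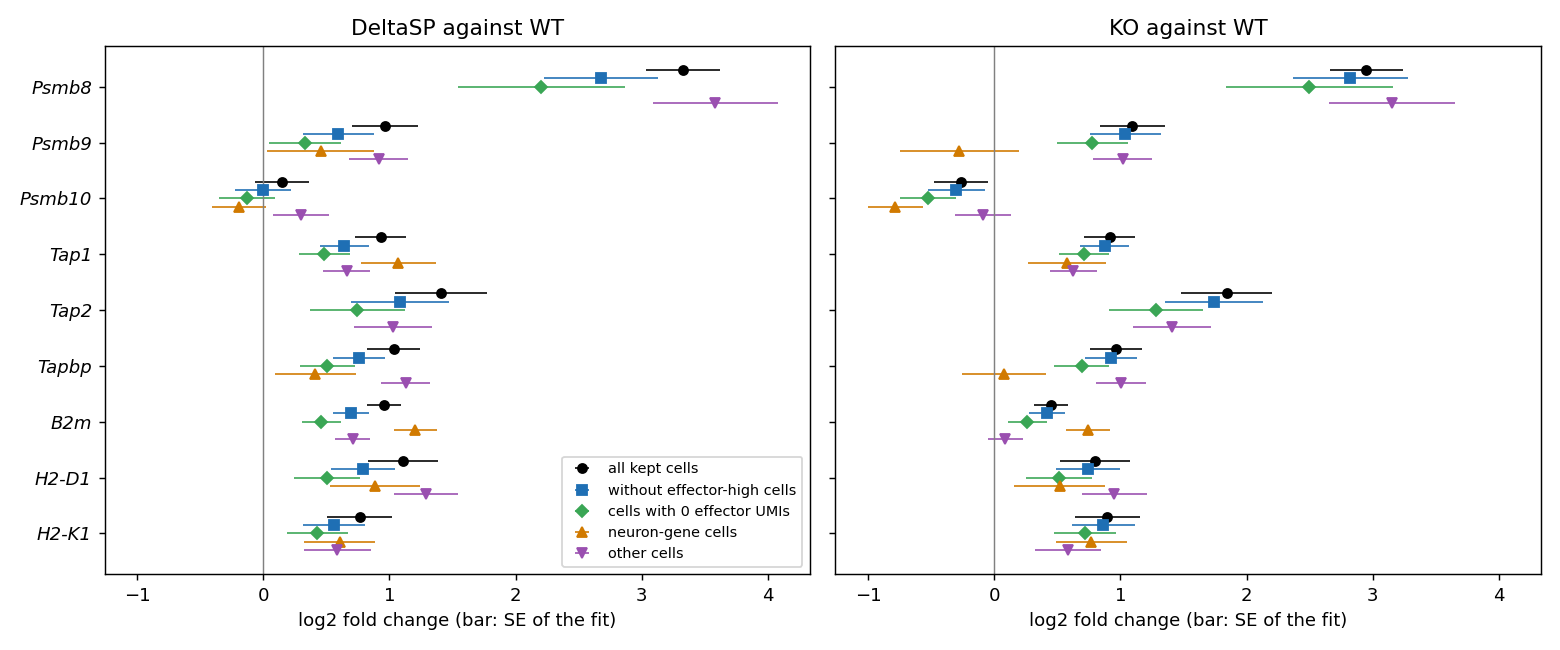
Log2 fold change, with the SE of the fit, of 9 members in DeltaSP and KO against WT in 5 sets of cells; Psmb8 and Tap2 are not drawn for neuron-gene cells, where WT has 2 UMIs or fewer per library. In DeltaSP each member's value is lower in cells with 0 effector UMIs than in all kept cells, and Psmb8 is the highest of the 9 in both panels.

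Other cell types were checked through marker lists. Summed leukocyte genes lay at 25.7 and 29.3 CPM in WT and 19.7 to 23.9 in the edited libraries, with Tyrobp at 0 in each library but WT 1. Macrophage genes lay at 2.66 and 2.07 in WT and 1.24 to 1.65 in the edited libraries. A summed list does not count cells of a type: WT 2 had the highest leukocyte sum with 5 of the 12 leukocyte genes at 0. Mesenchymal genes ran from 35.2 to 84.0 CPM in WT and from 37.2 to 75.0 in the edited libraries, endothelial genes from 20.5 to 21.7 and from 23.2 to 34.5, and pluripotency genes from 1.53 to 2.66 and from 1.81 to 13.7. The part of any of these cell types in the result was not tested.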

How the data were processed

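For each of the 6 libraries the authors deposited UMI counts, 1 value per gene and barcode, without normalization; the labels name Cell Ranger 4.0, mm10 and Ensembl release 93 for this step, and the 10x 3' kit as version 3 in one place and 3.1 in another. UMIs were summed per library over all kept cells or over ranges of cells (3000 UMIs per thinned cell, fixed seed), and no doublet caller was run here. The sums went into edgeR 4.0.16 under R 4.3.3: TMM scaling (factors 0.897 to 1.10), filterByExpr and quasi-likelihood tests, with p-values adjusted by Benjamini-Hochberg over all genes tested at a threshold of 0.05. Comparisons of ranges had library as a block, and genotype was the term otherwise. For genotypes the p-values measure the spread between libraries only. For ranges of cells they measure only how the difference within a library varies over libraries. edgeR draws each gene's spread partly from all genes, which weighs much where only 3 libraries were compared.

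All 10 members are named in each comparison, and up to 3 genes of smallest p in each further list; some of these are not reported here. Members, lists and ranges were chosen with earlier results of these data known. Gene coordinates are those of GENCODE M21 (mm10). The test was checked on simulated counts in which known genes were changed: for KO against WT it found 47% of 2-fold and 83% of 4-fold changes with 8 false calls, between neuron-gene and other cells 97% and 100% with 11, and for effector-high cells 68% and 93% with 12. Other settings tried were DESeq2 1.42.0 (its size factors, or its Wald test), no low-count filter, a term for the replicate number, fits without single libraries, a cell filter of 500 genes and 20% mitochondrial UMIs, thinned sums, other range boundaries, sums without effector-high cells, and fits of 2 genotypes.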

Additional observations from a re-analysis of the deposited data

How the results depend on the processing

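The median log2 fold changes between genotypes kept their direction in the comparisons with WT under all alternatives run. The counts of members passing did not keep their size. With no filter on low counts, and in some fits without 1 library, Nlrc5 was fitted too, so these cover 10 members. For KO against WT over all cells, 5 members passed; the count was 0 to 5 without single libraries, 3 with the replicate block, 2 with only the 2 genotypes in the fit and 0 in cells with no effector UMI, and 7 with no filter on low counts or with DESeq2. For DeltaSP against WT, 2 passed; the count was 0 to 3 without single libraries, 1 with the replicate block, DESeq2 size factors, the looser cell filter, thinned sums or 2 genotypes, 0 without effector-high cells or in cells with no effector UMI (median 0.48), 6 with the DESeq2 test and 8 with no filter. For KO against DeltaSP the median of -0.07 ran from -0.33 to 0.079 without single libraries, and was 0.17 without effector-high cells and 0.23 in cells with no effector UMI; it turned direction, with no member passing. In neuron-gene cells, where none passed, no filter gave 4 higher and 1 lower in KO and 6 higher in DeltaSP, the DESeq2 test 0 higher and 1 lower in KO and 1 higher in DeltaSP, and leaving out single libraries 0 to 1 higher in both, with 1 lower in KO without WT 2; the lower gene was Psmb10 each time. In other cells KO had 1 passing: 0 to 3 without single libraries, 0 with the replicate block or without effector-high cells, 5 with DESeq2 and 7 with no filter, with the median of 0.95 between 0.54 and 1.0. DeltaSP there had 0 passing: 0 to 2, 1 with thinned sums, 4 with DESeq2 and 7 with no filter; its median fell from 0.91 to 0.52 without effector-high cells. For KO against DeltaSP in other cells the median of -0.12 ran from -0.32 to -0.019, and was 0.16 without effector-high cells. The median of -0.46 in neuron-gene cells ran from -0.68 to -0.31 without single libraries, and was -0.31 without effector-high cells. In effector-high cells the median of the 10 fitted values was 2.68, with the uncertain one of Nlrc5 included. It was 2.41 at a boundary of 3 UMIs and 3.03 at 10. Over the other 9 members these medians were 2.602, 2.32 and 2.93. In the contrast of neuron-gene cells with other cells, all 9 members tested kept passing as lower. The cause of these differences was not tested.

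Over all genes, 1121 passed for KO and 53 for DeltaSP against WT, and 4 to 3207 and 1 to 1106 without single libraries; no filter gave 3390 and 1326, and the DESeq2 test 2382 and 604. In effector-high cells 1517 passed, 641 with the DESeq2 test and 409 within other cells only. Same-numbered libraries deviated together in no regular way (correlations -0.19, 0.28 and 0.06 over 10214 genes). With 2 libraries per genotype, these correlations cannot show whether the replicate numbers pair the samples. Nlrc5, with 2 to 12 UMIs per library, and Psmb8 and Tap2 in WT neuron-gene cells were limited by depth.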
